A study of Mus musculus with 4 samples.

Results

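The genes described here are those that were counted in mouse Hoxb8 cells carrying an empty vector and were nearly or wholly uncounted in Hoxb8 cells expressing DNMT3A R882H. The 32 genes were chosen on raw counts, as genes whose sum over the 2 R882H libraries was 15 or less and whose sum over the 2 EV libraries was 100 or more. The table held 52636 genes, of which 8608 reached the EV limit and 38 met both limits, a share of 0.441% of the 8608. Of the 38, Gpc3, Add2, Bmpr1a, Flt1, Fstl1 and Ppbp were left out by name, and no gene with a Gm or Rik symbol met the limits. "Switched off" is a working name, since only 3 of the 32 genes had no count in either R882H library.

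Hoxb8 cells are lines named for the homeobox gene Hoxb8, which is used to immortalise myeloid progenitors of mouse marrow. The tested cells expressed DNMT3AR882H (R882H, n = 2 libraries) and the controls held the empty vector (EV, n = 2). All 4 libraries carry the same cell line label. The mouse strain, the sex of the cells, the vector and its promoter, and whether each group is a clone or a pool are not stated in the labels, and nothing there says that the libraries of a group came from separate cultures. Libraries were made by a 3′ tag protocol (QuantSeq) in which each transcript gives reads near its poly(A) tail, so a count below is a count of such tags.

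DNMT3A is a DNA methyltransferase that adds methyl groups to the cytosine of CpG dinucleotides, and R882H is a recurrent substitution in its catalytic domain in acute myeloid leukaemia. Promoters rich in CpG are usually unmethylated, whereas promoters poor in CpG are often methylated in cells that do not use them. Neither methylation nor protein was measured in these samples. Because the genes were selected on the contrast between R882H and EV, their counts are given as a description and no test of that contrast is drawn from them.

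Depth and origin of the libraries set the frame for these values. The R882H libraries held 5921985 and 5847609 counts and the EV libraries 5470330 and 5605092. A count of 0 in both R882H libraries allows up to 3 counts over the group, or 0.257 CPM (counts scaled to library size with edgeR), and intervals on folds are exact 95% intervals that cover counting error only. The counts of Dnmt3a were 254 and 239 in R882H cells and 264 and 270 in EV cells (log2 fold change −0.19 ± 0.15, edgeR adjusted p = 0.334), which does not check the labels because 3′ tags need not cover a transgene. The libraries also differed in Y-linked transcripts. Ddx3y had 65 and 41 counts in R882H cells against 0 and 2 in EV cells, and Eif2s3y had 26 and 29 in R882H cells against 1 and 0 in EV cells. The X-inactivation RNA Xist had 1880 and 1509 counts in R882H cells and 1463 and 1438 in EV cells. A difference in the origin of the cells would go with the groups. Its part in the values below was not tested and cannot be told apart from that of R882H in this design.

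The 32 genes gave 104 and 85 counts in all in the R882H libraries, against 4016 and 4442 in the EV libraries. Their summed level was 17.4 and 14.9 CPM in R882H cells and 736 and 784 CPM in EV cells. Serpinb12 supplied 31.1% of the EV counts, and without it the sums were 16.6 and 14.6 CPM in R882H cells and 499 and 548 CPM in EV cells. No gene had more than 10 counts in an R882H library or fewer than 42 in an EV library, so the groups did not overlap for any of them, as the limits nearly require. Among all 11444 tested genes both R882H libraries lay below both EV libraries, in CPM, for 33.9%. All 32 were also called lower by edgeR, beside 19.4% of tested genes called lower and 19.3% called higher, a count that the selection fixes. On counts scaled by library size the genes were 9.61-fold to 394-fold lower in R882H cells with a median of 36.2-fold, where genes at 0 enter at their lower bound, and 24 of the 32 were more than 20-fold lower.

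**Figure D1:**
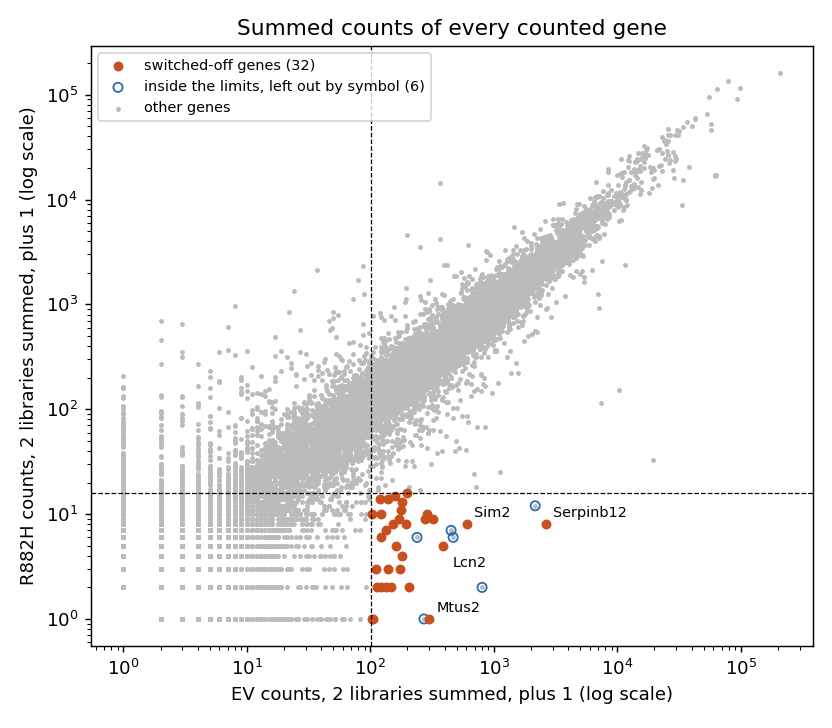
Summed counts of the 2 EV libraries (horizontal, plus 1, log scale) and of the 2 R882H libraries (vertical, plus 1, log scale) for every gene with a count. Dashed lines are the limits of 100 EV and 15 R882H counts; the 32 selected genes (filled) and the 6 left out by name (open rings) fill the lower right corner, and most lie close to the EV limit.

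Most of the selected genes were expressed at a modest level in EV cells. Their median EV level was 14.4 CPM, against 43.8 CPM for all genes over the EV limit. Both count limits were met by 24 of 1669 genes with 100 to 200 EV counts (1.44%), by 8 of 2054 with 201 to 400 (0.389%) and by 6 of 4885 above that (0.123%). Serpinb12 stood apart at 236.5 ± 0.919 CPM in EV cells (SD, n = 2), higher than 91.2% of genes over the EV limit. Sim2 followed at 54.3 ± 2.86 CPM and Lcn2 at 34.8 CPM.

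The promoters of the selected genes spanned both kinds of CpG content. A RefSeq promoter window (GRCm38.p6, 250 bases before to 50 after the start nearest the gene's 5′ end) was found for 26 of the 31 protein-coding genes and for 6686 of the 8251 protein-coding genes over the EV limit. The start lay within 1000 bases of the annotated 5′ end of the gene for 23 of the 26, and further inside the gene for Pglyrp1 (13359 bases), Prdm1 (69753 bases) and Sema3a (271370 bases), whose windows may belong to other starts than the one in use. The observed over expected CpG ratio was 0.6 or more in 13 of the 26, against 80.5% of the 6686 and 35.8% of all 32851 windows in the table. Without the windows over 1000 bases away it was 12 of 23 (52.2%), against 82.003% of 6151 genes, an alternative added after seeing the data. Among the 1237 matched genes with 100 to 200 EV counts, the range that holds most of the selected genes, the share was 76.0%. The median ratio was 0.619 for the selected genes, 0.776 for genes with 100 to 200 EV counts and 0.812 for all genes over the EV limit. The difference between these shares was not tested.

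The windows of 4 genes show the range, with CpG dinucleotides in capitals and each written 5′ to 3′ on the gene's strand. Serpinb12 (chr1:106934199-106934498, plus strand) and Lcn2 (chr2:32387690-32387989, minus strand) hold 3 CpG each, Twist1 (chr12:33957421-33957720, plus strand) holds 27 and Mtus2 (chr5:147957070-147957369, plus strand) holds 28.
Serpinb12: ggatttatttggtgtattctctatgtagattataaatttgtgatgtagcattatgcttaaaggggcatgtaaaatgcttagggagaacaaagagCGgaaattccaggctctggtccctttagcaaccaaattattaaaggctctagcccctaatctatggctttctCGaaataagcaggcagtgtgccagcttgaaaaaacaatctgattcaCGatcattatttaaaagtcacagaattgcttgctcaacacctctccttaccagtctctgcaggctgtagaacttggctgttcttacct
Lcn2: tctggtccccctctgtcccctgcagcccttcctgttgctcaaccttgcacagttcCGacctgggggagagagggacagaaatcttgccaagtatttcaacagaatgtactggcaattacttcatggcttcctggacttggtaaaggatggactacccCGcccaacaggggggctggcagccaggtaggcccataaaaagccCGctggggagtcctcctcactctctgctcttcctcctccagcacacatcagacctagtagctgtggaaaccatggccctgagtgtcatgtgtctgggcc
Twist1: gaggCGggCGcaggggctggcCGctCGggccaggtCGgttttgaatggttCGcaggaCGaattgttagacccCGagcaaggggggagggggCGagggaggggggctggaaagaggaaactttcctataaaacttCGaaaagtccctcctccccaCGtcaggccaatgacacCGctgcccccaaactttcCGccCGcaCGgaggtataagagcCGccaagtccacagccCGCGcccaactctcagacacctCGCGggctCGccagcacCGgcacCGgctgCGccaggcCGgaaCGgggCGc
Mtus2: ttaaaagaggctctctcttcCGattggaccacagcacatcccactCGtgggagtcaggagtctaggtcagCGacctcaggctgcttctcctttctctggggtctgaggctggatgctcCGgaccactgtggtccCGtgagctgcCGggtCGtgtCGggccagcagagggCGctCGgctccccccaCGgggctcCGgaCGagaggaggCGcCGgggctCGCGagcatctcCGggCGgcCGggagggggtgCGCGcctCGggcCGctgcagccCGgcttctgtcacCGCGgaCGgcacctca
Genes with a CpG-poor and with a CpG-rich start thus both appear among those with the highest EV counts. The lowest number was 1 CpG, in the window of Gdf15, and the highest 44, in that of Spats2.

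**Figure D2:**
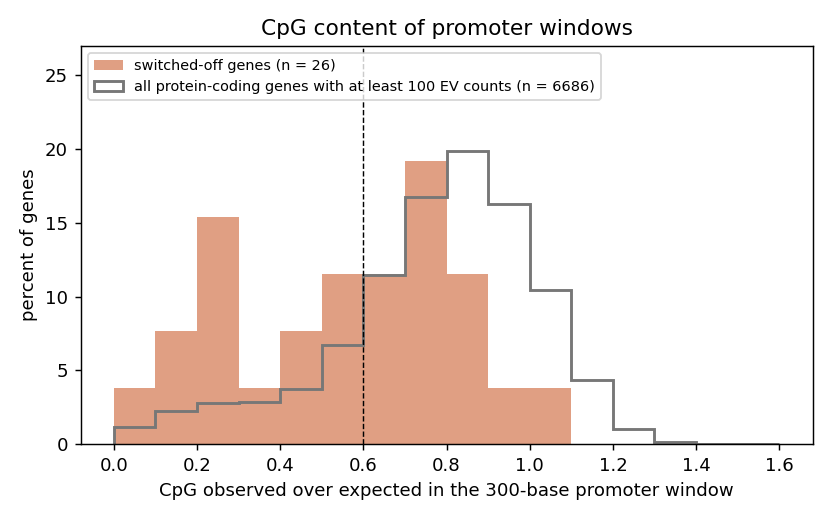
Percent of genes (vertical) by observed over expected CpG ratio of the 300-base promoter window (horizontal). Filled bars are the 26 matched selected genes and the outline is the 6686 matched protein-coding genes with at least 100 EV counts; the 3 windows far from the annotated 5′ end are included, and 13 of the 26 lie left of the dashed line at 0.6.

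Short motifs were counted in the same windows on both strands, and none of them contains another. TATAAA, the letters at the core of a TATA box, was in 4 of the 26 windows (15.4%), against 6.13% of the 6686 and 13.6% of all windows. Serpinb12 and Twist1 were among the 4. The place of the match in the window was not used, so a match is not a call of a TATA box. The Sp1 motif GGGCGG was in 14 (53.8%), among them those of Lcn2, Twist1 and Mtus2, against 68.2% of the 6686 and 35.7% of all windows. The E-box CANNTG, bound by basic helix-loop-helix factors such as Twist1, was in 18 (69.2%), against 60.5% and 72.3% of the same sets. The motif AGATAA of GATA factors was in 2 (7.69%), against 5.62% and 11.2%. The AP-1 motif TGACTCA was in 3 (11.5%), against 2.99% and 5.20%. A match is a description of the letters, and these shares were not tested.

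Transcription factors gave 3 of the genes. Sim2 (chromosome 16, 94084931 to 94127032), a basic helix-loop-helix PAS factor that acts as a dimer with ARNT, had 2 and 5 counts in R882H cells and 285 and 319 in EV cells, 90.6-fold lower in R882H cells (95% interval 43.7 to 226). Twist1 (chromosome 12, 33957671 to 33959829), a mesodermal factor that pairs with E proteins, had 7 and 1 counts in R882H cells and 160 and 164 in EV cells, 42.5-fold lower (21.3 to 99.3). Prdm1 (chromosome 10, 44437177 to 44528501), the zinc finger repressor Blimp-1 of plasma cell differentiation, had 1 and 1 counts in R882H cells and 42 and 69 in EV cells, 58.3-fold lower (15.8 to 487). The EV replicates of Sim2 and Twist1 lay close together, while Prdm1 had the widest gap between EV replicates of the 32 in the direction of replicate 2. The paralogues Sim1 and Twist2 had 0 counts in all 4 libraries, so in EV cells each of these factors was the only counted member of its pair.

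Secreted proteins made up 6 of the genes. Lcn2 (chromosome 2, 32384633 to 32388252), the siderophore-binding lipocalin of neutrophil granules, had 3 and 1 counts in R882H cells and 164 and 224 in EV cells, 102-fold lower (39.5 to 376). Pglyrp1, a peptidoglycan recognition protein of the same cells, kept more tags than any other selected gene, with 5 and 10 counts in R882H cells against 102 and 96 in EV cells, 13.9-fold lower (8.20 to 25.2). Of the other granule genes of neutrophils, Ltf, Camp, Ngp and Mmp9 had 0 counts in all 4 libraries. Others were counted. The neutrophil list used here holds granule genes and others, such as the receptor gene Cxcr2, but not Pglyrp1. Without Lcn2 it summed to 355 and 373 CPM in R882H cells and 275 and 274 CPM in EV cells. Clu, an extracellular chaperone, had 3 and 5 counts in R882H cells and 108 and 167 in EV cells, 36.1-fold lower (18.1 to 84.4). Gdf15, a stress-induced cytokine of the TGF-beta superfamily, had 7 and 5 counts in R882H cells and 94 and 87 in EV cells, 15.8-fold lower (8.85 to 31.2). Both genes kept a few tags in each R882H library. Cbln2 and Sema3a, best known from neurons, were close to 0 in R882H cells. Cbln2, a synapse organiser, had 1 and 0 counts in R882H cells and 112 and 93 in EV cells, a ratio of 215 (38.2 to 8542). Sema3a, an axon guidance factor that acts through neuropilin and plexins, had 1 and 0 in R882H cells and 61 and 51 in EV cells, a ratio of 118 (20.7 to 4686).

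Receptors and other surface proteins were the largest group, with 9 genes. Tgfbr3, the betaglycan co-receptor for TGF-beta and inhibin, had 2 and 1 counts in R882H cells and 78 and 102 in EV cells, a ratio of 63.0 (21.2 to 308). Ramp3, which pairs with the calcitonin receptor-like protein to form an adrenomedullin receptor, had 4 and 6 counts in R882H cells and 80 and 95 in EV cells, 18.4-fold lower (9.76 to 39.0). Procr, the endothelial protein C receptor that also marks blood stem cells, had 5 and 2 counts in R882H cells and 69 and 83 in EV cells, 22.8-fold lower (10.8 to 57.7). These receptors lay at like levels in EV cells and differed mainly in how many tags remained in R882H cells. Gpr84, a medium-chain fatty acid receptor of myeloid cells, had 8 and 5 counts in R882H cells and 64 and 74 in EV cells, 11.15-fold lower (6.31 to 21.5). Ifnlr1, the ligand-binding chain of the lambda interferon receptor, had 1 and 0 counts in R882H cells and 65 and 69 in EV cells, a ratio of 141 (24.8 to 5598). F11r, the junctional adhesion molecule A, had 2 and 0 counts in R882H cells and 71 and 66 in EV cells, a ratio of 71.9 (19.5 to 600). Ifnlr1 and F11r were thus counted in only 1 of the R882H libraries. Prnp, the prion protein, had 0 and 1 counts in R882H cells and 57 and 65 in EV cells, a ratio of 128 (22.6 to 5100). Tenm4, a teneurin adhesion protein, had 7 and 2 counts in R882H cells and 53 and 50 in EV cells, 12.02-fold lower (6.09 to 27.02). One end of Tenm4 overlaps C230038L03Rik on the opposite strand, which had 3 and 2 counts in R882H cells and 26 and 22 in EV cells. The strand setting of the counting is not stated, so reads from the stretch they share cannot be assigned to one of them with certainty.

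H2-Q10, a class Ib histocompatibility gene, had 2 and 0 counts in R882H cells and 75 and 97 in EV cells, a ratio of 90.3 (24.6 to 752). Its neighbour H2-Q7 rose, with 2279 and 1979 counts in R882H cells and 826 and 926 in EV cells (log2 fold change 1.21 ± 0.13, edgeR adjusted p = 4.50e-09). The H2-Q genes are near-identical copies and differ between mouse strains, and the labels do not say how reads shared by them were counted, so the value of H2-Q10 is uncertain.

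**Figure D3:**
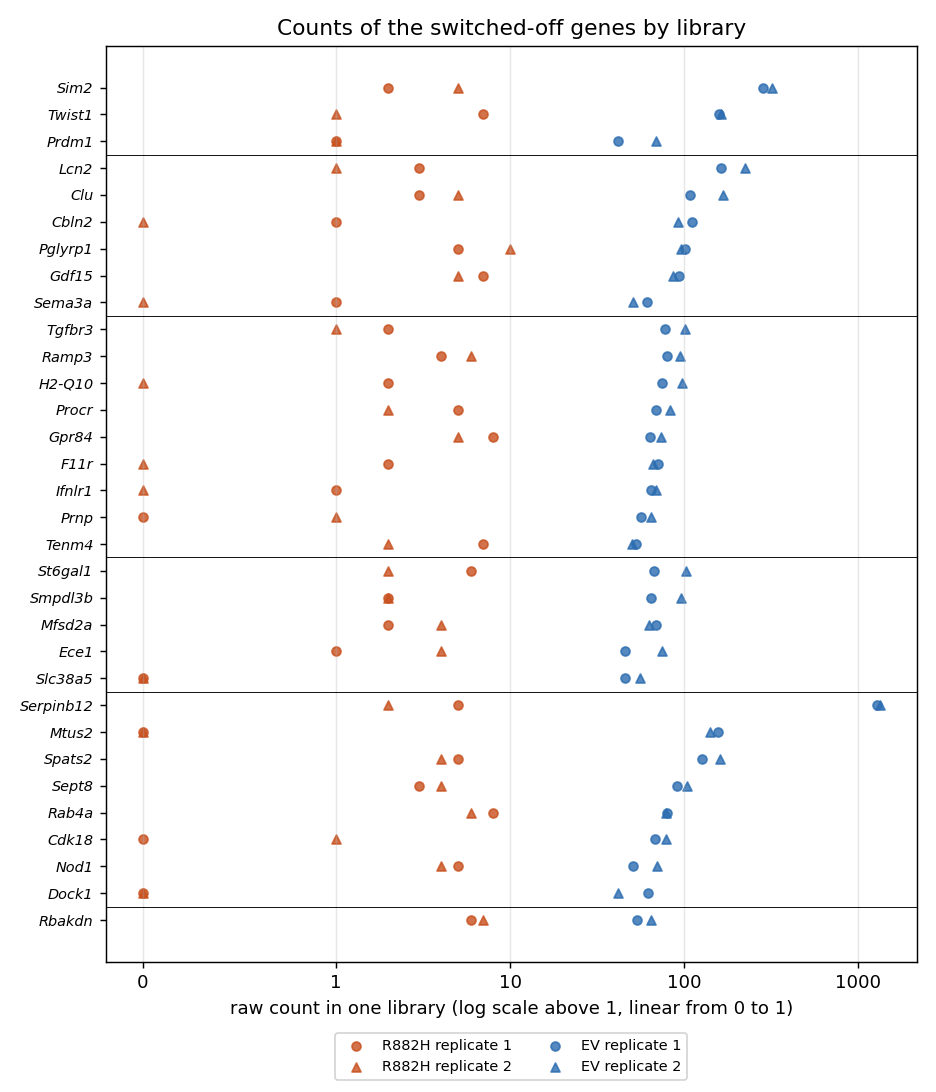
Raw count in each library (horizontal, log scale above 1) for the 32 genes (rows), ordered from top to bottom as transcription factors, secreted proteins, receptors and surface proteins, membrane enzymes and transporters, intracellular proteins and the noncoding RNA Rbakdn. Orange marks R882H and blue EV, with circles for replicate 1 and triangles for replicate 2; no orange mark exceeds 10 and no blue mark is under 42.

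Membrane enzymes and transporters gave 5 genes. St6gal1, which adds sialic acid to the ends of N-glycans, had 6 and 2 counts in R882H cells and 67 and 103 in EV cells, 22.3-fold lower (11.1 to 52.5). Smpdl3b, a membrane-anchored phosphodiesterase related to acid sphingomyelinase, had 2 and 2 in R882H cells and 65 and 96 in EV cells, 42.3-fold lower (16.2 to 157). Ece1, which converts endothelin precursors to their active form, had 1 and 4 in R882H cells and 46 and 75 in EV cells, 25.4-fold lower (10.6 to 79.7). For these 3 genes EV replicate 2 was the higher EV library. Mfsd2a, a transporter of lysophosphatidylcholine, had 2 and 4 counts in R882H cells and 69 and 63 in EV cells, 23.1-fold lower (10.3 to 64.1). The glutamine transporter Slc38a5 (chromosome X, 8271133 to 8280179) had no counts in R882H cells and 46 and 56 in EV cells, at least 35.7-fold lower, and was the only X-linked gene of the 32.

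Intracellular proteins gave 8 genes with the widest span of levels. Serpinb12 (chromosome 1, 106934449 to 106957080), a clade B serpin that inhibits trypsin-like proteases, had 5 and 2 counts in R882H cells and 1293 and 1336 in EV cells, 394-fold lower (191 to 982). Mtus2 (chromosome 5, 147957320 to 148316065), a microtubule-associated protein, had no counts in R882H cells and 157 and 142 in EV cells, at least 105-fold lower. Dock1 (chromosome 7, 134670654 to 135173639), an activator of the GTPase Rac that works with ELMO proteins, had no counts in R882H cells and 62 and 42 in EV cells, at least 36.4-fold lower. Mtus2, Dock1 and Slc38a5 were the genes with no R882H count at all. Spats2 had 5 and 4 counts in R882H cells and 127 and 161 in EV cells, 33.6-fold lower (17.5 to 74.2). The septin Sept8, a filament-forming GTPase, had 3 and 4 counts in R882H cells and 91 and 104 in EV cells, 29.2-fold lower (13.9 to 73.7). Cdk18, a cyclin-dependent kinase of the PCTAIRE type, had 0 and 1 in R882H cells and 68 and 79 in EV cells, a ratio of 154 (27.3 to 6137). The peptidoglycan sensor Nod1 and the endosomal GTPase Rab4a kept more tags. Nod1 had 5 and 4 counts in R882H cells and 51 and 70 in EV cells, 14.1-fold lower (7.19 to 31.6). Rab4a had 8 and 6 in R882H cells and 80 and 79 in EV cells, 11.9-fold lower (6.90 to 22.3).

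The only noncoding gene was Rbakdn, a long intergenic RNA on chromosome 5 (143164779 to 143165751) next to the zinc finger gene Rbak. It had 6 and 7 counts in R882H cells and 54 and 65 in EV cells, 9.61-fold lower (5.41 to 18.6), the smallest fold of the 32. Rbak itself rose, with 84 and 88 counts in R882H cells and 41 and 50 in EV cells (log2 fold change 0.85 ± 0.23, edgeR adjusted p = 0.00393), a call that ended in DESeq2 (adjusted p = 0.0900).

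The size of a fold depended on the few R882H tags. Leaving out R882H replicate 1 moved it by more than 1.5 times for 9 of the 24 genes that still had a count, and leaving out R882H replicate 2 did so for 11 of 27, while leaving out EV replicate 1 or EV replicate 2 did so for 0 of 29. Serpinb12 was 674-fold lower without R882H replicate 1 and 283-fold lower without R882H replicate 2, Sim2 61.9-fold and 162-fold, Lcn2 199-fold and 69.5-fold, and Twist1 166-fold and 24.9-fold. Among genes with a count in the remaining R882H library the smallest fold was 7.91. No count was left for 8 genes without R882H replicate 1 and for 5 without R882H replicate 2. For these only lower bounds of 17.4-fold to 53.6-fold, against 3 counts in the 1 remaining library, can be given, below the ratios or bounds printed above.

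The limits are steps in a continuous range of values. Just inside the R882H limit were Pglyrp1, Rab4a and Gpr84 with sums of 15, 14 and 13 R882H counts. Just outside it were Ms4a6d with 10 and 6 counts in R882H cells and 137 and 117 in EV cells, Ch25h with 11 and 5 in R882H cells and 52 and 62 in EV cells, and App, the amyloid precursor protein, with 14 and 3 in R882H cells and 317 and 402 in EV cells. App was 44.4-fold lower in R882H cells, a larger fold than the median of the 32. Just inside the EV limit were Slc38a5, Tenm4 and Dock1 with EV sums of 102, 103 and 104. Just outside it were Fat4 with 8 and 5 counts in R882H cells and 39 and 58 in EV cells, Hrk with 9 and 5 in R882H cells and 40 and 54 in EV cells, and Serpinb3a with 1 and 0 in R882H cells and 35 and 57 in EV cells.

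Serpinb12 lies in a cluster of clade B serpin genes on chromosome 1, where 11 other genes of the root are listed. The 3 of them that were tested fell, 4 had too few counts to be tested and 4 had none. All 3 passed the count filter only through the EV libraries, so a fall was nearly the only call open to them. The 19.4% of all tested genes that fell is therefore not a matching share. Serpinb3a, the nearest tested gene on the side of higher coordinates at 88.5 kb, fell by 6.27 ± 0.69 on the log2 scale (edgeR adjusted p = 4.39e-09). Serpinb11 had 0 and 6 counts in R882H cells and 34 and 24 in EV cells (log2 fold change −3.29 ± 0.60, edgeR adjusted p = 3.85e-05), and Serpinb10 had 6 and 9 in R882H cells and 29 and 22 in EV cells (−1.82 ± 0.46, edgeR adjusted p = 0.00178). The call ended in DESeq2 for Serpinb11 (adjusted p = 0.187) and Serpinb10 (adjusted p = 0.0560), and the log2 fold change of Serpinb11 was −7.90 without R882H replicate 2. Among the untested genes, Serpinb8 had 5 and 0 counts in R882H cells and 3 and 6 in EV cells, and Serpinb2 had 2 and 2 in R882H cells and 0 and 5 in EV cells. Serpinb7 had 1 and 2 in R882H cells and 0 and 0 in EV cells, and Serpinb5 had 1 and 0 in R882H cells and 0 and 0 in EV cells. Serpinb1a, a clade B serpin on chromosome 13, rose, with 3217 and 3118 counts in R882H cells and 2105 and 2118 in EV cells (0.51 ± 0.13, edgeR adjusted p = 0.00228).

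Genes with the same symbol root as a selected gene were counted for 23 of the 32, 167 genes in all. Of the 74 that were tested, 16 fell, 14 rose and 44 were not called, a share of 21.6% lower beside 19.4% of all tested genes. The count that fell was 9 in DESeq2. For 10 of the 23, Sim2, Twist1 and Cbln2 among them, no related gene had enough counts to be tested, and 59 of the 167 had none in any library. The Dock family split, with Dock6 at 1 and 0 counts in R882H cells and 21 and 27 in EV cells (log2 fold change −5.33 ± 0.79, edgeR adjusted p = 1.39e-06), Dock5 lower (−1.43 ± 0.19) and Dock10 higher (0.73 ± 0.14). Among septins, Sept10 had 2 and 1 counts in R882H cells and 17 and 21 in EV cells (−3.62 ± 0.67, edgeR adjusted p = 4.87e-05), while the abundant Sept2 was not called (0.06 ± 0.13). Semaphorins moved both ways. Sema3d, the tested gene next to Sema3a, had 36 and 45 counts in R882H cells and 0 and 1 in EV cells (5.96 ± 0.71, edgeR adjusted p = 2.15e-08), Sema4d rose (1.24 ± 0.15) and Sema4c fell (−2.32 ± 0.38). Dock6 and Sept10 passed the count filter only through the EV libraries, and Sema3d only through the R882H libraries. The direction of their calls was thus nearly fixed by the filter. The accessory protein gene Ramp1 rose with 808 and 784 counts in R882H cells and 305 and 301 in EV cells (1.32 ± 0.13, edgeR adjusted p = 6.30e-10). Ramp2 fell (−0.53 ± 0.14), a call that ended without EV replicate 2 (edgeR adjusted p = 0.0619) and without R882H replicate 1 (edgeR adjusted p = 0.173).

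The nearest tested genes on each side of the 32, 64 in all, included 25 that fell, 11 that rose and 28 that were not called. The share lower was 39.1%, beside 19.4% of all tested genes, and the difference between these shares was not tested. The count that rose was 7 in DESeq2. Of the 25, 17 kept their call under all 11 alternatives. Serpinb3a, Rhou, Gm13012, C230038L03Rik and 4933421A08Rik, among the 25, passed the count filter only through the EV libraries. For these genes the filter nearly fixed the direction of the call. For 2 of the 64, Gm13012 within Ece1 and C230038L03Rik at one end of Tenm4, the gene overlaps the selected gene, and of the other 62 there were 23 that fell. At least 1 neighbour fell for 20 of the 32 genes and both fell for 5, namely Serpinb12, Sim2, Lcn2, Sept8 and Mfsd2a. The 19.4% is a share of single genes, and no matching share for pairs of neighbours around all genes was computed. Both neighbour calls of Sim2 (Chaf1b and Hlcs) and of Sept8 (Kif3a and Uqcrq) ended under at least 1 alternative, and those of Serpinb12, Lcn2 and Mfsd2a did not. The neighbour that fell with the smallest p was Ssbp4, 20.5 kb from Gdf15, with 186 and 173 counts in R882H cells and 617 and 744 in EV cells (log2 fold change −1.99 ± 0.14, edgeR adjusted p = 1.29e-13). Vps4b, an ATPase of the ESCRT pathway 138 kb from Serpinb12, also fell (−1.20 ± 0.13, edgeR adjusted p = 4.41e-09). The histone deacetylase gene Hdac9, 87.8 kb from Twist1, had 88 and 98 counts in R882H cells and 180 and 181 in EV cells (−1.03 ± 0.18, edgeR adjusted p = 1.79e-05). The uncharacterised gene 4933421A08Rik, 0.121 kb from Mfsd2a, had no counts in R882H cells and 22 and 16 in EV cells. Ssbp4 was 3.98-fold, Vps4b 2.30-fold and Hdac9 2.04-fold lower in R882H cells.

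**Figure D4:**
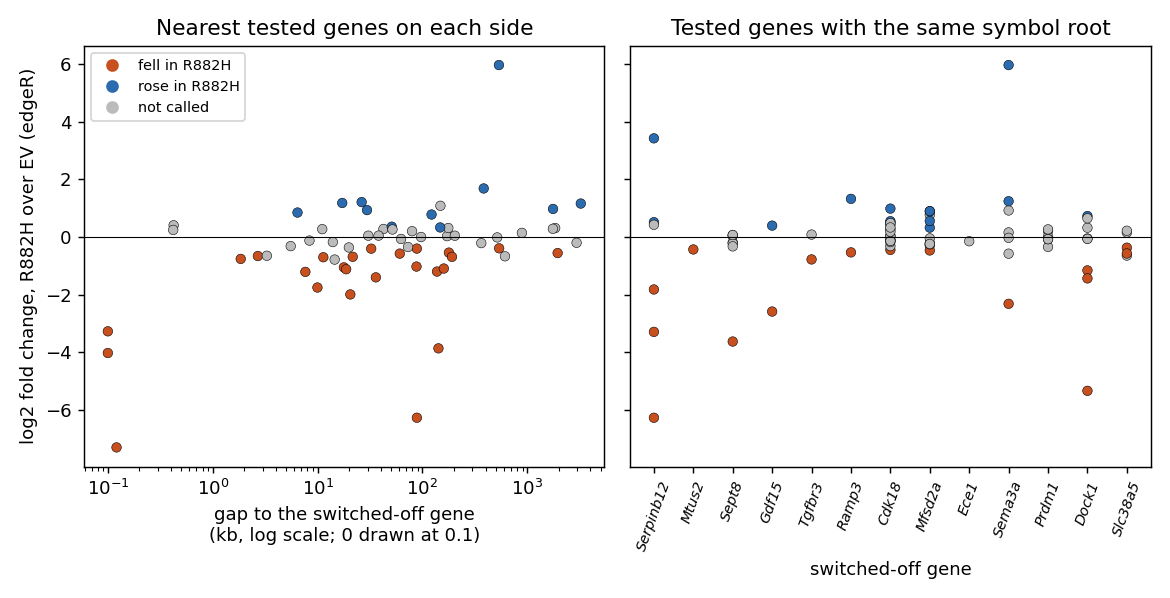
Log2 fold change, R882H over EV, from edgeR (vertical). Left, the 64 nearest tested genes against their gap to the selected gene (horizontal, kb, log scale, a gap of 0 drawn at 0.1); right, the 74 tested genes with the same symbol root, by selected gene. Orange marks genes that fell, blue genes that rose and grey genes that were not called; most neighbours that fell lie between 0 and −2.

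The selected genes were spread over the chromosomes. Chromosomes 4 and 5 held 4 each, 12.5% of the 32, against 6.26% and 6.76% of genes over the EV limit. On chromosome 5 Mtus2 lies 0.231 Mb from Flt1, which met the count limits too, and on chromosome 4 Ifnlr1 and Ece1 lie 2.15 Mb apart.

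Known binding or pathway partners of the selected proteins were taken from textbook pairs. Of 69 partner genes 42 were tested, of which 8 fell (19.05%), 10 rose and 24 were not called, beside 19.4% of all tested genes that fell and 19.3% that rose. Receptors and ligand-binding partners that rose included Nrp1, the neuropilin through which Sema3a acts, with 532 and 412 counts in R882H cells and 203 and 162 in EV cells (log2 fold change 1.30 ± 0.15, edgeR adjusted p = 1.69e-08). Thbd, the thrombomodulin that works with the receptor encoded by Procr, had 111 and 98 counts in R882H cells and 14 and 10 in EV cells (3.04 ± 0.30, edgeR adjusted p = 2.68e-10). Il10rb, the shared chain of the lambda interferon receptor, rose (0.75 ± 0.17, edgeR adjusted p = 0.000530), and its exons overlap those of Gm21970. Partners that were not called include Arnt, the dimer partner of Sim2 (−0.38 ± 0.21, edgeR adjusted p = 0.144), and Elmo1, the partner of Dock1 (0.28 ± 0.13, edgeR adjusted p = 0.0943). Of the 8 that fell, only Id1, an inhibitor of basic helix-loop-helix factors, kept its call under all 11 alternatives, with 30 and 41 counts in R882H cells and 84 and 76 in EV cells (−1.24 ± 0.25, edgeR adjusted p = 0.000190). DESeq2 called 3 partners lower, as did edgeR when R882H replicate 1 or R882H replicate 2 was left out.

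Markers of other blood and stromal cells moved with the groups as well. Apart from Lcn2 and Procr, the 12 lists held no selected gene. The imprinted and the sex-linked list are among the 12 and mark no cell type. Of the 84 tested genes of all 12 lists 17 fell (20.2%) and 36 rose (42.9%), beside 19.4% and 19.3% of all tested genes. Of these calls 12 that fell and 29 that rose held under all 11 alternatives. B-cell markers rose for 9 of 10 tested, with a summed level of 1877 and 1870 CPM in R882H cells and 679 and 680 CPM in EV cells. Mast cell and basophil markers rose for 5 and fell for 1 of 7, with 516 and 509 CPM in R882H cells and 129 and 145 CPM in EV cells, while Fcer1a, Cma1, Tpsb2 and Tpsab1 were at 0 in all libraries. T and NK cell markers fell for 3 and rose for 1 of 5. Their summed level was 63.9 and 57.6 CPM in R882H cells and 651 and 745 CPM in EV cells. Thy1, with 68 and 45 counts in R882H cells and 3356 and 3991 in EV cells, supplied nearly all of the EV sum. Without Thy1 the rest of the list summed higher in R882H cells than in EV cells. Of the 3 that fell, Tcf7 lost its call in DESeq2 (adjusted p = 0.0661). Cd3e, Cd3g and Zap70 were at 0. Megakaryocyte and platelet markers fell for 5 and rose for 3 of 14, with 593 and 542 CPM in R882H cells and 1738 and 1580 CPM in EV cells. Pf4, with 90 and 60 counts in R882H cells and 5635 and 4781 in EV cells, supplied most of the EV sum. Without Pf4 the sum was lower in R882H cells by a much smaller margin, and the median log2 fold change of the 14 was 0.20. In DESeq2 the calls of all 3 that rose ended, Itga2b (adjusted p = 0.0989), Nfe2 (0.120) and Gfi1b (0.224). So did those of Itgb3 (0.213) and Ptgs1 (0.131) among the 5 that fell. Of the other lists, monocyte markers rose for 4 and fell for 3 of 8, dendritic cell markers rose for 3 and fell for 2 of 5, and erythroid markers fell for 2 and rose for 1 of 7. Neutrophil granule genes other than Lcn2 rose for 1 and fell for 0 of 4, the 1 being Mmp8, whose call ended without R882H replicate 1 (edgeR adjusted p = 0.0594) and without R882H replicate 2 (edgeR adjusted p = 0.188). The genes of this list other than Lcn2 had a summed level of 355 and 373 CPM in R882H cells and 275 and 274 CPM in EV cells. Genes of the stem and early progenitor cell list other than Procr rose for 3 and fell for 0 of 11. Their summed level was 2590 and 2638 CPM in R882H cells and 2244 and 2335 CPM in EV cells. The 3 were Cd48 (log2 fold change 4.36), Mycn (7.99) and Lmo2 (0.44). The list mixes genes of stem cells and of other early progenitors, so these calls are not a measure of stem cells. The call of Lmo2 ended when R882H replicate 1 or R882H replicate 2 was left out. Endothelial and stromal markers rose for 2 and fell for 1 of 4, imprinted genes rose for 2 and fell for 0 of 5, and sex-linked genes rose for 2 and fell for 0 of 4. In bulk samples fewer cells of a type and less RNA per cell cannot be told apart, and the part of these shifts in the values of the selected genes was not tested.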

How the data were processed

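Raw counts per gene in 4 libraries, as the authors deposited them, were used without change. The submitters' processing notes list, with no roles, the mm10 build and the tools limma 3.48.3, edgeR 3.34.0, Subread 2.0.0 with featureCounts, HISAT2 2.0.4, cutadapt 1.14 and bcl2fastq 2.17.1.14. The annotation and the strand setting used for counting are not stated there. Symbols matched 52403 of 52636 genes, and positions come from GENCODE M21, of the same assembly.

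The members and lists were chosen with earlier results of these data known. edgeR 4.0.16 in R 4.3.3 (filterByExpr, TMM, robust glmQLFit, glmQLFTest, Benjamini-Hochberg, threshold 0.05) was fitted to all genes after tests on simulated data. Its p-values reflect no more than the variation among the 4 libraries, which may be technical. A gene that passed the count filter through a single group could hardly be called except as higher in that group. DESeq2 1.42.0 was an alternative. CPM use TMM-scaled library sizes. The error of a log2 fold change is its size divided by the root of edgeR's F statistic. The rule for named genes gave per-library values for the 20 selected genes with the most EV counts, those at 0 and those nearest the limits, and the other selected genes were added after their values were seen. For other genes the rule took called genes with the smallest p in each set, some called the other way, and marker genes with the most counts. Some named genes lie outside this rule, among them Dock5, Dock6, Dock10, Sept2, Sept10, Sema4c and Ramp2. Members of the Serpinb cluster, Mmp8, Chaf1b, Hlcs, Kif3a, Uqcrq, Hdac9, 4933421A08Rik, Rbak, H2-Q7 and the partner genes were added after the selected genes, and except for the partner list after their own values, were seen. Symbol roots shared by over 30 genes, such as Rab and Gpr, were not used. Exons were compared among genes with at least 10 counts, and of the 32 genes Tenm4 alone overlapped another. The result of 1 partner gene is not reported here.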

Additional observations from a re-analysis of the deposited data

How the results depend on the processing

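The direction and call of the 32 selected genes are fixed by the limits that chose them, so that they held under the 11 alternatives says nothing about stability. The number of genes chosen was 15 with an R882H limit of 5, 52 with 30, 83 with an EV limit of 50 and 8 with 200. It was 32 on counts scaled to the mean TMM-adjusted library size and 31 without genes with overlapping exons, and ranged from 30 to 36 when 1 library was left out and its group's limit scaled to 1 library. Among all tested genes 2222 fell and 2213 rose, against 1397 and 1285 in DESeq2, and 1446 to 2168 fell and 1508 to 2065 rose with 1 library left out. In DESeq2, 9 of the related genes fell, 7 neighbours rose and 3 partners fell. With 1 library left out, 3 to 7 partners fell, 11 to 15 related genes fell, 19 to 23 neighbours fell and 8 to 10 rose.

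With the replicate block 2229 genes fell and 2196 rose. Replicate numbers do not pair the samples (correlation of their deviations −0.0008 across 11444 genes), and the block changed no count by more than 1.5 times. Of 151 other genes followed, 7 changed sign under an alternative, none of them called: Gata3 (−0.082 to 0.134 with 1 library left out), Tfrc (−0.016 by library size only, −0.0055 with DESeq2 size factors, −0.00051 with a filter of 10 counts in each library of either group, −0.0076 in DESeq2, and −0.078 to 0.104 with 1 library left out), Gnas (−0.0082 to 0.0974), Tsix (−0.418 to 0.21), Ece2 (−0.297 to 0.017), Tgfbr1 (−0.041 to 0.221) and Sept2 (−0.057 to 0.178), the last 5 with 1 library left out and all on the log2 scale. Depth limits the folds, since an R882H sum of 15 or less leaves wide counting intervals.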

Other observations

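The EV libraries can be compared for the selected genes without the R882H values. EV replicate 2 was higher than EV replicate 1 for 20 of the 32 genes and lower for 12, beside 54.3% of all genes over the EV limit that were higher in replicate 2. The widest ratios of EV replicate 2 over EV replicate 1 were 1.58 for Prdm1, 1.57 for Ece1, 1.49 for Clu and 1.48 for St6gal1 on one side, and 0.652 for Dock1, 0.799 for Cbln2 and 0.805 for Sema3a on the other. The median absolute log2 ratio was 0.21 for the selected genes and 0.20 for the 3723 genes with 100 to 400 EV counts. The median gene body was 25678 bases for the selected genes and 22384 bases for all genes over the EV limit.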
